A study of Mus musculus with 13 samples.

Results

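The nucleoplasmins and maternally supplied chromatin regulators examined here are 8 genes of the 54232 in the deposited table of mouse oocyte RNA sequencing counts. They were chosen by name: the nucleoplasmins Npm1, Npm2 and Npm3, the chromatin remodeller Smarca4, the TIF1 co-regulators Trim28 and Trim24, and the zinc-finger proteins Ctcf and Bnc1. All 8 had a row and passed the filter on low counts. The study asked what the loss of the long noncoding RNA Sirena1 does to oocytes, and it sequenced 13 pools of 25 cells each. Metaphase II (MII) eggs, matured and collected 12 to 14 h after hCG, came from Null females (n = 4 pools) and wild-type (WT) females (n = 3 pools). Fully grown germinal vesicle (GV) oocytes, which have not resumed meiosis and were handled in medium with the meiotic inhibitor IBMX, came from Null females (n = 3 pools) and WT females (n = 3 pools). Null animals carry a Cas9-made deletion of the promoter of Sirena1. They descend from injected C57Bl/6 zygotes by breeding with C57BL/6NCrl animals. The strain is labelled C57BL6/J in all groups, all females were superovulated, and the number of founder lines is not stated. The labels do not say that replicates came from separate females, so p values measure the spread between these pools, which may be technical.

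A fully grown mouse oocyte is transcriptionally quiet, and the mRNA it holds must serve meiotic maturation, fertilization and the start of development. Maternal chromatin proteins repackage the incoming sperm DNA, protect imprints and prepare the embryonic genome for transcription. Nucleoplasmins are pentameric chaperones that carry histones. Npm2 is the oocyte member of the family, and mouse embryos made from eggs without it develop poorly.

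The shallowest library held 30867614 counts and the deepest 41285507. Levels are given as CPM, the usual unit of counts per library size, scaled with TMM factors, which set libraries level over the bulk of genes. Each pool holds an equal number of cells, but the spiked RNA added per the labels is not among the rows used here, so levels are relative to the other mRNAs of a library. Sirena1, listed as C86187, averaged 41.3 ± 4.41 CPM in MII Null and 4519 ± 221 CPM in MII WT, and 24.8 ± 1.58 CPM in GV Null and 3006 ± 90.2 CPM in GV WT (SD). All 15 oocyte markers were present in the libraries except Sohlh1, which was at 0 in 7 libraries, and their summed level ran from 12980 to 16390 CPM. The 21 cumulus and granulosa cell markers summed to 364 to 378 CPM in MII Null, 347 to 359 CPM in MII WT, 294 CPM in replicate 1 of GV Null with 861 and 450 CPM in its replicates 2 and 3, and 277 to 306 CPM in GV WT. From 19 to 21 of them had counts in each GV Null library, 19 or 20 in GV WT, 11 to 19 in MII Null and 11 or 12 in MII WT, while Tnfaip6 was at 0 in 11 libraries. Serpine2, Nr5a2 and Cyp19a1 made up most of the MII WT sum, at 241, 60.5 and 36.5 CPM. In GV WT they had 169, 54.8 and 27.7 CPM. Fshr (1.49 against 0.725 CPM) was also higher in MII WT. Hsd3b1 (1.46 against 7.52), Inha (0 against 2.37), Inhba (0.2 against 3.5) and Gja1 (0.0115 against 3.4) were lower. The sums thus do not rank carryover between the stages. The 7 blood markers summed to at most 2.86 CPM. MII Null replicate 4 stood between the stages, at 21.6 on the principal component that held 85.8% of the variance, where the other eggs of that group spanned 33.5 to 48.8, MII WT 39.8 to 45.0 and all GV libraries -50.3 to -42.4.

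Of the members, Npm2 differed most between the stages, at about 0.3 of its GV level in MII in both genotypes, and the rises of other members were smaller. A rise here is one relative to the other mRNAs of a library. Npm1, Trim24 and Ctcf were higher in MII eggs than in GV oocytes of both genotypes. Smarca4 and Bnc1 passed the test in Null alone and Trim28 in WT alone, while Npm3 passed in neither. The genotype by stage test of these differences called none of the 8. By edgeR's quasi-likelihood test with Benjamini-Hochberg adjustment over 20143 genes, 5 members were higher and 1 was lower in MII than in GV in Null, where 49% of all genes tested changed, 22.1% higher and 26.9% lower. In WT, 4 members were higher and 1 was lower, against 42.7% of all genes tested, 19.9% higher and 22.8% lower. Among the 10307 genes that averaged at least 5 CPM, which 7 of the members did, 62.4% changed in Null, 39.3% higher and 23.2% lower, and 57.3% in WT, 34.5% higher and 22.7% lower. The median log2 fold change of the members was 0.30 in Null and 0.24 in WT, against 0.14 in each genotype over those 10307 genes. Rises of this size depended on the scaling, since scaling by library size lowers the median maturation change of all genes by 0.23 log2 units in Null and by 0.20 in WT. Under that scaling, which was chosen after seeing the data, Npm2, Npm1 and Trim24 alone passed the test, in both genotypes. A lower level in a pool may reflect fewer cells with the mRNA or less of it per cell, which cannot be told apart.

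**Figure D1:**
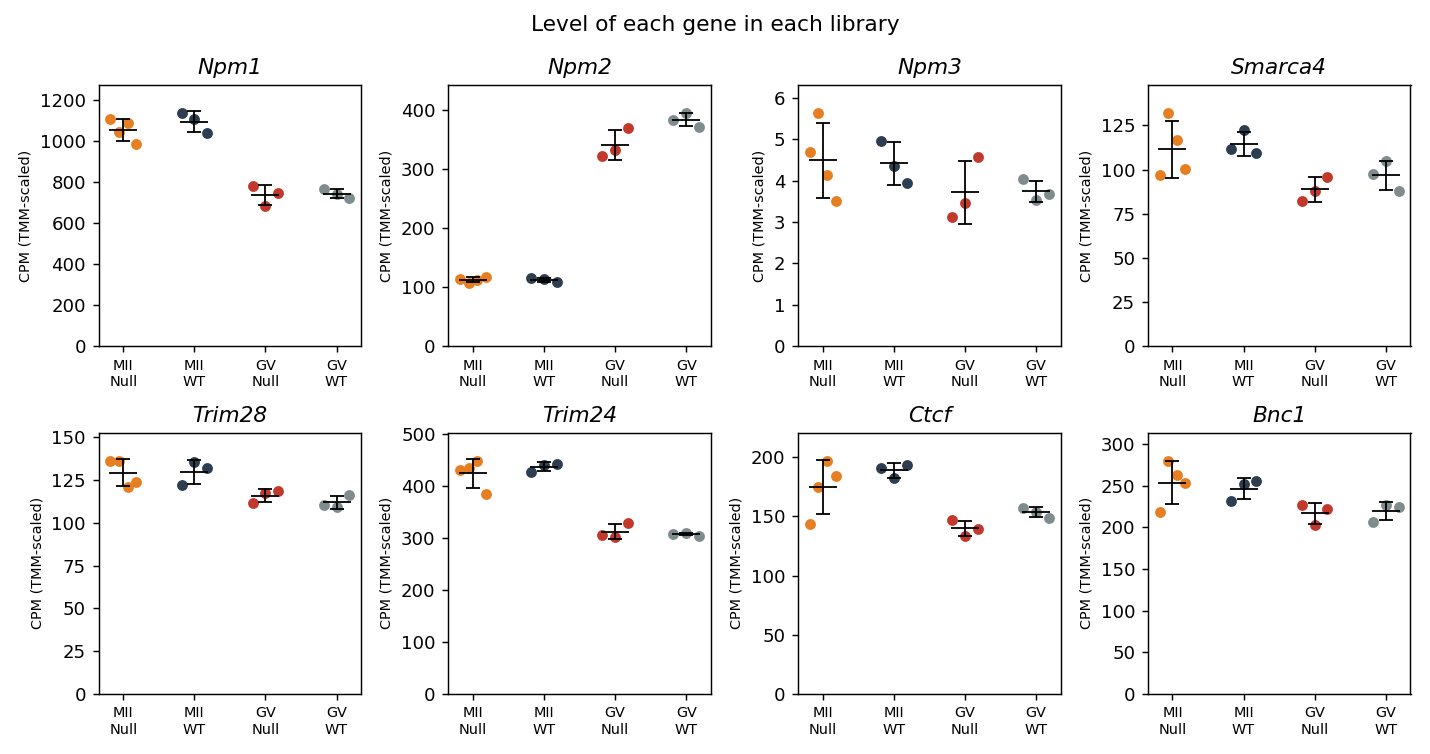
Level of each of the 8 genes in TMM-scaled CPM (vertical axis, each panel from 0 with its own scale) in the 13 libraries, by group. Points are libraries, the long bar is the group mean and the whiskers are 1 SD. MII libraries lie below all GV libraries for Npm2, and above all GV libraries for Npm1, Trim24 and Trim28.

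Npm2, whose protein shapes chromatin around the nucleolus-like body of the oocyte, lies on chromosome 14 from 70647296 to 70661802 (GRCm38.p6) and overlaps the lncRNA gene Gm52133. Npm2 had 114, 107, 112 and 117 CPM in MII Null eggs and 115, 113 and 109 CPM in MII WT eggs. It had 322, 332 and 369 CPM in GV Null oocytes and 383, 395 and 372 CPM in GV WT oocytes. The 7 egg libraries lay close together at less than the lowest GV library, so the stages did not overlap in either genotype. The Npm2 level in MII was 0.33 times that in GV in Null (log2 fold change -1.60, SE 0.065, adjusted p = 4.45e-12) and 0.29 times in WT (log2 -1.77, SE 0.072, adjusted p = 6.72e-12) by edgeR. Only 5.68% of the genes of at least 5 CPM had a lower fold than Npm2 in Null, and 5% in WT. The call held in all 20 alternative settings in each genotype, with a log2 change between -1.83 and -1.51 in Null and between -1.97 and -1.75 in WT.

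Npm1, the ubiquitous nucleolar member that works in ribosome assembly and histone binding, lies on chromosome 11 from 33152498 to 33164142. Npm1 had 1105, 1045, 1085 and 985 CPM in MII Null and 1136, 1106 and 1039 CPM in MII WT. It had 778, 682 and 744 CPM in GV Null and 767, 740.5 and 721 CPM in GV WT. Every egg library stood above every GV library, in the direction opposite to Npm2. The rise was 1.43-fold in Null (log2 0.52, SE 0.068, adjusted p = 5.13e-06) and 1.47-fold in WT (log2 0.56, SE 0.072, adjusted p = 5.46e-06) by edgeR, and 87.3% and 91.1% of the genes of at least 5 CPM had a lower fold. It was smaller under library size scaling, at a log2 change of 0.30 in Null and 0.36 in WT, still past the test. Npm1 has processed pseudogenes in the mouse genome, and the treatment of reads that fit several places is not stated.

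The count of Npm1 reads for each Npm2 read within a library needs no scaling. It shows how the counts of these mRNAs moved relative to each other but not which of them moved. This ratio was 9.72, 9.73, 9.70 and 8.41 in MII Null eggs, against 2.42, 2.06 and 2.02 in GV Null oocytes. In WT it was 9.88, 9.75 and 9.54 in eggs, against 2.00, 1.88 and 1.94 in GV oocytes. The mean ratio was 9.39 ± 0.654 (SD, n = 4) in MII Null and 9.72 ± 0.17 (SD, n = 3) in MII WT, and 2.16 ± 0.222 in GV Null and 1.94 ± 0.0625 in GV WT (SD, n = 3 each). Stages stood far apart, while Null and WT libraries overlapped in eggs. In GV oocytes the ratio was higher in each Null library than in each WT library, with the lowest Null value at 2.02 and the highest WT value at 2.00. The ratio contains the Npm2 counts, and Npm2 levels were also apart by genotype in these libraries. Levels were apart in this comparison for 12.8% of all genes tested, and the share for ratios was not computed. Transcript lengths enter the ratio alike in all libraries, so they do not by themselves change it between groups. Whether amplification captured both mRNAs alike in GV oocytes and eggs was not tested. The size of the ratio does not give molecules of Npm1 for each molecule of Npm2.

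**Figure D2:**
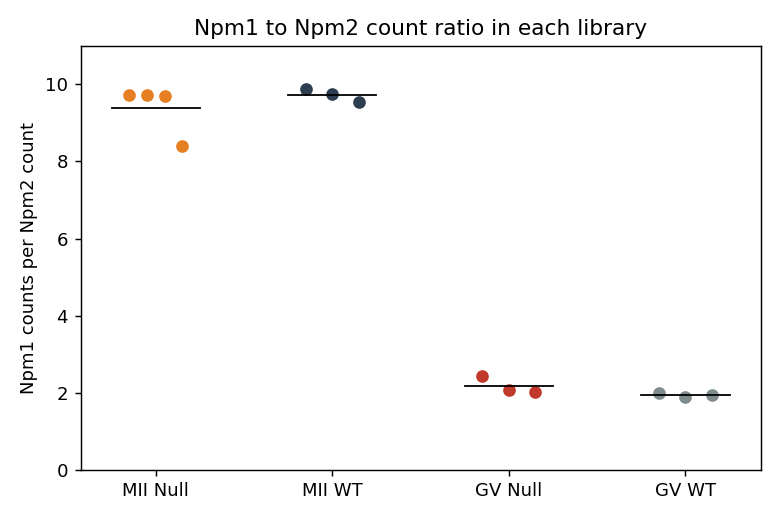
Counts of Npm1 divided by counts of Npm2 in each library (vertical axis, from 0), by group, with the group mean as a bar. Egg libraries lie between 8.41 and 9.88 and GV libraries between 1.88 and 2.42, and MII Null replicate 4 is the lowest egg library.

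Npm3, a nucleolar nucleoplasmin that binds Npm1, was the lowest in counts of the 8, with 113 to 180 counts a library. Its gene lies on chromosome 19 from 45747734 to 45749565. Npm3 had 4.70, 5.64, 4.13 and 3.51 CPM in MII Null and 4.97, 4.34 and 3.94 CPM in MII WT, against 3.12, 3.46 and 4.56 CPM in GV Null and 4.03, 3.53 and 3.67 CPM in GV WT. The stages overlapped in both genotypes, and neither difference passed the test (log2 0.28, SE 0.19, adjusted p = 0.238 in Null and log2 0.24, SE 0.20, adjusted p = 0.359 in WT, edgeR). The pseudogene row Npm3-ps1 had 0.393 to 1.29 CPM, so the counts of Npm3 are uncertain, by an amount that these data do not give.

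Trim24 and Trim28 encode TIF1 proteins, which bind modified histones and transcription factors. Trim24, on chromosome 6 from 37870811 to 37968445, reads histone tails and has been placed in the activation of the mouse embryonic genome. Trim24 had 429, 433, 448 and 383 CPM in MII Null and 426, 440.3 and 442 CPM in MII WT, against 305, 300.4 and 327 CPM in GV Null and 307, 309 and 304 CPM in GV WT. Eggs stood above GV oocytes without overlap, by 1.36-fold in Null (log2 0.45, SE 0.066, adjusted p = 2.09e-05) and 1.42-fold in WT (log2 0.51, SE 0.070, adjusted p = 1.16e-05, edgeR). Trim28, on chromosome 7 from 13024152 to 13031032 and overlapping the protein-coding gene Gm31649, is the co-repressor that KRAB zinc-finger proteins recruit to retroelements and imprinted regions. Trim28 had 136, 136, 121 and 124 CPM in MII Null and 122, 136 and 132 CPM in MII WT, against 112, 118 and 119 CPM in GV Null and 110.3, 109 and 116 CPM in GV WT. Every egg library lay above every GV library of its genotype. The log2 change was 0.16 (SE 0.069, adjusted p = 0.0660) in Null and 0.22 (SE 0.073, adjusted p = 0.0239) in WT by edgeR. The WT call was lost in 11 of 20 alternatives, and under library size scaling the change was -0.07 in Null and 0.015 in WT.

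Smarca4 encodes BRG1, the ATPase of BAF chromatin remodelling complexes, and mouse embryos that lack the maternal supply arrest early. Its gene lies on chromosome 9 from 21616106 to 21704230. Smarca4 had 96.9, 132, 117 and 100.3 CPM in MII Null and 112, 122 and 109.7 CPM in MII WT, against 82.4, 87.8 and 96.1 CPM in GV Null and 97.7, 105 and 87.9 CPM in GV WT. Egg libraries lay above GV libraries of the same genotype, in Null by a margin of less than 1 CPM. The log2 change was 0.33 (SE 0.10, adjusted p = 0.0110) in Null and 0.24 (SE 0.11, adjusted p = 0.0740) in WT by edgeR. The Null call was lost without MII Null replicate 2 (log2 0.21, adjusted p = 0.0759) and under library size scaling (log2 0.099, adjusted p = 0.434).

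Ctcf, the zinc-finger protein that stops cohesin at loop anchors, lies on chromosome 8 from 105636474 to 105682922, where it overlaps the lncRNA genes Gm5914 and Gm33578 and the transcribed pseudogene Gm5915. Ctcf had 143, 175, 197 and 185 CPM in MII Null and 191, 182 and 194 CPM in MII WT, against 147, 134 and 139 CPM in GV Null and 158, 154 and 149 CPM in GV WT. The WT stages were apart, but MII Null replicate 1 fell among the GV Null libraries. The log2 change was 0.32 (SE 0.087, adjusted p = 0.00469) in Null and 0.30 (SE 0.092, adjusted p = 0.0133) in WT by edgeR. The call in Null was lost without GV Null replicates 2 and 3 (log2 0.25, adjusted p = 0.155). The call in WT was lost without GV WT replicate 3 (adjusted p = 0.0520), MII WT replicate 1 (adjusted p = 0.0768) or MII WT replicate 3 (adjusted p = 0.0878). Under library size scaling both calls were lost, with log2 0.097 in Null (adjusted p = 0.342) and 0.099 in WT (adjusted p = 0.394, edgeR).

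Bnc1, or basonuclin, is a zinc-finger protein of germ cells and basal keratinocytes that acts on ribosomal RNA genes, and lies on chromosome 7 from 81966657 to 81992299. Bnc1 had 219, 280.4, 263 and 254 CPM in MII Null and 232, 252 and 256 CPM in MII WT, against 227, 202 and 222 CPM in GV Null and 207, 227 and 225 CPM in GV WT. The Null stages overlapped through MII Null replicate 1, and the WT stages were apart. The log2 change was 0.23 (SE 0.080, adjusted p = 0.0264) in Null and 0.17 (SE 0.086, adjusted p = 0.127) in WT by edgeR. The Null call was lost in 8 of 20 alternatives, among them leaving out GV Null replicate 2 (adjusted p = 0.122), MII Null replicate 2 (0.136) or 3 (0.0847) or 4 (0.0505), and under library size scaling the change was 5.5e-05 in Null and -0.034 in WT. Over all 8 members, egg and GV libraries did not overlap for 5 in Null (Npm1, Npm2, Smarca4, Trim28 and Trim24), against 46.4% of all genes tested, and for 7 in WT (all but Npm3), against 58.3%.

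**Figure D3:**
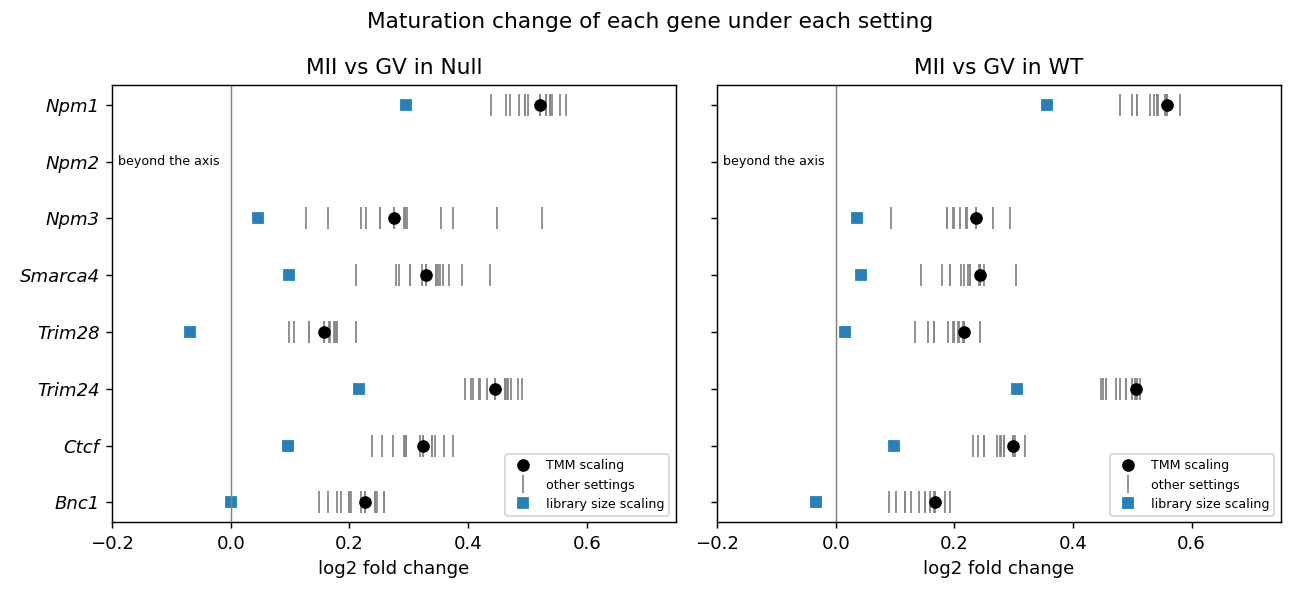
Log2 fold change of MII against GV (horizontal axis) for each gene in Null (left) and WT (right) with TMM scaling (circles), with library size scaling (squares) and in each other setting (ticks). Npm2, between -1.97 and -1.51, is beyond the axis; under library size scaling Trim28 in Null and Bnc1 in WT lie below 0.

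None of the 8 mRNAs differed between Null and WT past the test at either stage. In GV oocytes 0 of 8 passed edgeR's quasi-likelihood test and 0 passed DESeq2, where 0.0546% of all genes tested were called by edgeR. Before adjustment 1 member (Npm2) was under 0.05, as were 1342 of the 20143 genes tested. In MII eggs 0 of 8 passed and 0 passed DESeq2, again against 0.0546% of all genes tested by edgeR. Before adjustment 0 members were under 0.05 there, against 1280 of the 20143 genes tested. The 95% intervals bound what these pools could show. Leaving Npm3 aside, the intervals of the other 7 members reached from -0.29 to 0.21 log2 units in MII eggs and from -0.35 to 0.21 in GV oocytes. For Npm3 they reached further, and with it the bounds were -0.37 and 0.42 in eggs and -0.43 and 0.40 in GV oocytes.

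In GV oocytes the 2 genes whose Null libraries all lay below all WT libraries were Npm2 and Ctcf, which is 2 of 8 against 12.8% of all genes tested. Npm2 averaged 341 ± 25.2 CPM in GV Null and 383 ± 11.5 CPM in GV WT (SD, n = 3 each), a log2 difference of -0.17 (SE 0.069, 95% interval -0.31 to -0.023, adjusted p = 0.713, edgeR). The highest Null library, at 369 CPM, was next to the lowest WT library, at 372 CPM. Ctcf averaged 139.8 ± 6.55 CPM in GV Null and 154 ± 4.25 CPM in GV WT, a log2 difference of -0.14 (SE 0.092, 95% interval -0.33 to 0.058, adjusted p = 0.846, edgeR). Smarca4 averaged 88.7 ± 6.90 CPM in GV Null and 96.8 ± 8.39 CPM in GV WT, with overlapping libraries (log2 -0.12, SE 0.11, adjusted p = 0.882, edgeR). The cumulus and granulosa markers also differed here, at 294, 861 and 450 CPM in the GV Null libraries and 277 to 306 CPM in GV WT. Without GV Null replicates 2 and 3, the libraries with the highest marker sums, the log2 difference was -0.25 for Npm2, -0.23 for Smarca4, -0.066 for Ctcf and -0.26 for Npm3. None of these passed the test, and the single GV Null library left is assumed to vary like the other groups.

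For the other 5 members, GV Null and WT means lay close. Npm1 averaged 735 ± 48.4 CPM in GV Null and 743 ± 22.8 CPM in GV WT, and Npm3 3.71 ± 0.755 and 3.74 ± 0.257 CPM. Trim28 averaged 116 ± 3.71 CPM in GV Null and 112 ± 3.75 CPM in GV WT, and Trim24 311 ± 14.3 and 307 ± 2.73 CPM. Bnc1 averaged 217 ± 12.9 CPM in GV Null and 219.6 ± 11.1 CPM in GV WT. The libraries of the genotypes overlapped for each of these.

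In MII eggs no member had Null and WT libraries apart, against 6.07% of all genes tested. Npm2 averaged 113 ± 4.09 CPM in MII Null (n = 4) and 112 ± 3.21 CPM in MII WT (n = 3), a log2 difference of 0.0013 (SE 0.066, 95% interval -0.14 to 0.14, adjusted p = 0.998, edgeR). Its interval in eggs thus left out a difference as large as the -0.17 estimated in GV oocytes, but the test of the difference between the stages gave 0.17 log2 units (SE 0.096, 95% interval -0.030 to 0.37, adjusted p = 0.999, edgeR), which did not pass. Ctcf had the lowest adjusted p of the members in eggs, with 175 ± 23.0 CPM in MII Null and 189 ± 6.11 CPM in MII WT (log2 -0.11, adjusted p = 0.896, edgeR). The wide Null spread came from 143 CPM in replicate 1 against 175 to 197 CPM in the others. The test of a different genotype effect in eggs and GV oocytes called 0 of 8, with 0 by DESeq2, and 0.00496% of all genes tested. Before adjustment 0 members were under 0.05, against 681 of the 20143 genes tested. The genotype comparisons use the same libraries as the maturation comparisons, so the values of Npm2 in the 4 groups are not independent support for each other.

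**Figure D4:**
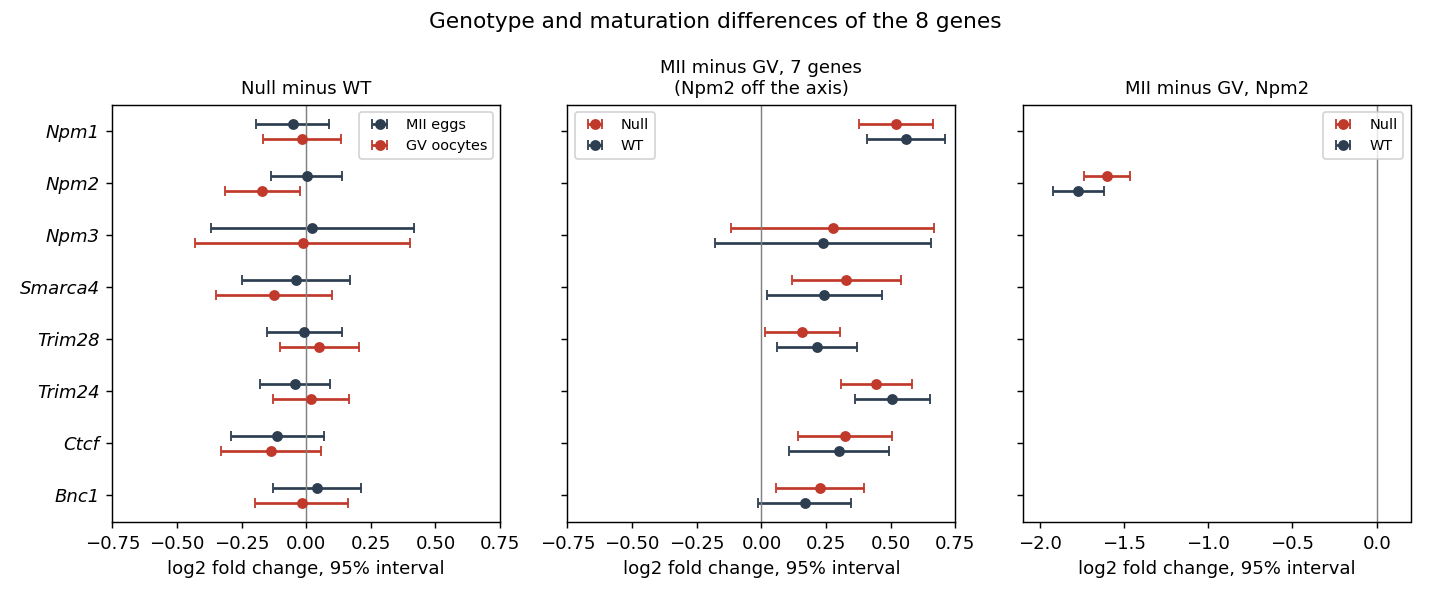
Log2 fold changes with 95% intervals (horizontal axes) for the 8 genes: Null minus WT in eggs and GV oocytes (left), MII minus GV in Null and WT for 7 genes (middle) and for Npm2 (right, on a wider axis). All genotype intervals include 0 except that of Npm2 in GV oocytes, which reaches -0.023, and the maturation interval of Npm2 lies between -1.92 and -1.46 over both genotypes.

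The partners and relatives of these genes were followed in 5 lists that hold 106 genes, of which 102 were tested. No list gene was called between Null and WT at either stage, or for the difference between stages, by edgeR or by DESeq2. Before adjustment, edgeR's p was under 0.05 for 7 of the 102 in GV oocytes and 6 in MII eggs. For the difference between stages it was for 1. Over all 20143 genes tested these counts were 1342, 1280 and 681. Many list genes differed between the stages, with 42 higher and 18 lower in MII than in GV in Null, and 34 higher and 19 lower in WT. This is 58.8% of the tested list genes in Null and 52.0% in WT, near the shares over all genes tested (49% and 42.7%) and over genes of at least 5 CPM (62.4% and 57.3%). The counts by list that follow are to be read against the same shares, and no list was tested against other genes. The balance turned with the scaling. Under library size scaling 18 were higher and 31 lower in Null, and 16 higher and 26 lower in WT. Without GV Null replicates 2 and 3, the counts in Null were 21 higher and 14 lower. The directions given for the genes named next held under library size scaling, and all of them passed the test there except Asf1b and Nipbl in Null and Nipbl and Rad21 in WT.

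Among 24 histone chaperones and exchange factors, 11 were higher and 2 lower in MII in Null, and 7 were higher and 4 lower in WT, which is 54.2% called in Null and 45.8% in WT, with a median log2 change of 0.17 in Null and 0.061 in WT. Over genes of at least 5 CPM the median was 0.14 in each genotype. The medians were below 0 under library size scaling, at -0.056 in Null and -0.14 in WT. Hira, which deposits the histone variant H3.3 and is needed in mouse eggs to build the male pronucleus, fell along with Npm2. Hira had 1.70 ± 0.254 CPM in MII Null and 4.73 ± 0.299 CPM in GV Null, and 1.62 ± 0.116 CPM in MII WT and 4.97 ± 0.462 CPM in GV WT (log2 -1.48 in Null and -1.61 in WT). Its binding partners Hirip3 (log2 0.60 in Null and 0.42 in WT) and Ubn2 (0.45 and 0.39) were higher in MII, as was the histone chaperone Asf1b (0.31 and 0.47).

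Of 22 tested partners of Smarca4 in BAF complexes, 11 were higher and 4 lower in Null, and 12 were higher and 3 lower in WT, which is 68.2% called in each genotype. Arid1a, the large DNA-binding subunit, had 970 ± 123 CPM in MII Null and 632 ± 59.2 CPM in GV Null, and 1014 ± 30.4 CPM in MII WT and 641 ± 25.3 CPM in GV WT (log2 0.62 in Null and 0.66 in WT). The subunit Ss18 was also higher (0.81 and 0.70). The core subunit Smarcb1 (-0.62 and -0.68) and the accessory subunit Smarcd2 (-0.59 and -0.65) were lower, so mRNAs of subunits of 1 complex moved in opposite directions. Under library size scaling 6 genes of the list were higher and 6 lower in Null, and 7 were higher and 3 lower in WT.

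Of 22 partners of Trim28 and TIF1 paralogs, 8 were higher and 4 lower in Null, and 7 were higher and 4 lower in WT, which is 54.5% called in Null and 50.0% in WT. Zfp57, a KRAB zinc-finger protein that brings Trim28 to imprinted regions, had 2856 ± 291 CPM in MII Null and 1639 ± 18.0 CPM in GV Null, and 2797 ± 64.6 CPM in MII WT and 1622 ± 30.0 CPM in GV WT (log2 0.80 in Null and 0.79 in WT). Atf7ip, a cofactor of the methyltransferase Setdb1, was higher (0.47 and 0.41). Mbd3 (-1.27 and -1.41) and Hdac2 (-0.39 and -0.42), both subunits of the NuRD deacetylase complex, were lower. The median over the list was 0.16 in Null and 0.12 in WT, and was -0.068 and -0.085 under library size scaling.

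Of 16 tested Ctcf partners and loop factors, 9 were higher and 2 lower in Null, and 6 were higher and 2 lower in WT, which is 68.8% called in Null and 50.0% in WT. The 4 with the smallest p in WT were all higher: the cohesin release factor Wapl (log2 0.54 in Null and 0.45 in WT), the cohesin loader Nipbl (0.39 and 0.39), the cohesin subunit Rad21 (0.45 and 0.32) and the Ctcf-binding remodeller Chd8 (0.53 and 0.42). Under library size scaling 3 genes of this list were higher and 3 lower in Null, and 2 were higher and 3 lower in WT. Of 18 relatives of Bnc1 and factors of ribosomal RNA gene transcription and nucleolar RNA modification, 3 were higher and 6 lower in Null, and 2 were higher and 6 lower in WT, which is 50.0% called in Null and 44.4% in WT, with a median of -0.22 in Null and -0.25 in WT. Polr1d, a subunit shared by RNA polymerases I and III, had 36.1 ± 5.69 CPM in MII Null and 121 ± 4.35 CPM in GV Null, and 34.5 ± 4.56 CPM in MII WT and 123 ± 4.46 CPM in GV WT (log2 -1.75 in Null and -1.83 in WT). Its partner subunit Polr1c (-1.43 and -1.20) and the rRNA methyltransferase Fbl (-0.89 and -1.04) were lower too, whereas the Bnc1 paralog Bnc2 was higher (0.56 and 0.62).

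The pattern of each member over the 13 libraries was set beside those of 8463 named genes of at least 5 CPM, by the root mean square difference of log2 CPM after centring each gene. The 2 genes nearest to Npm2 were Gadd45gip1 (0.104 log2 units) and Commd1 (0.112), and those nearest to Npm1 were Rsl1d1 (0.0413) and Mcph1 (0.0493). Nearest to Npm3 were Cherp (0.110) and Zbtb7b (0.121), and nearest to Smarca4 were Fam13c (0.0699) and Med26 (0.0754). Nearest to Trim28 were Degs1 (0.0579) and Smpd4 (0.0595), and nearest to Trim24 were Baiap2l1 (0.0473) and Hadha (0.0477). Nearest to Ctcf were Zbtb41 (0.0487) and Tnrc6b (0.0555), and nearest to Bnc1 were Rasa1 (0.0457) and Asxl1 (0.0496). All values share the libraries and their scaling, and the step between stages enters every pattern. Among the members, Npm1 and Trim24 were closest, at 0.0686, while Npm2 stood 0.938 to 1.11 log2 units from every other member.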

How the data were processed

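Per the labels' protocols, RNA of 25 cells was amplified with the NuGEN Ovation V2 system and sequenced as 65 bp single-end reads. The authors deposited raw counts per gene of Ensembl release 93, without normalization, for 54232 genes in 13 libraries. The submitters' processing notes name STAR 2.5.3a, bedtools 2.26.0 and GRCm38.p6. The counting tool, strand setting and treatment of reads with several matches are not given in those sources. The overlapping genes named above come from RefSeq, while the counts were made per Ensembl gene. Whether those genes were among the counted ones was not checked, so the part of any shared reads is unknown.

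The counts were fitted with edgeR 4.0.16 (R 4.3.3): filterByExpr by group (20143 genes kept), TMM scaling, 1 model of 4 groups, and glmQLFit (robust) with glmQLFTest, two-sided, for 5 comparisons. Benjamini-Hochberg adjustment ran over all genes tested (threshold 0.05). SE is the log2 fold change divided by the root of the F statistic. Alternatives were RLE scaling, no filter, DESeq2 1.42.0, a replicate block, fits of the compared groups alone, leaving out libraries, and library size scaling. The scripts were checked on simulated counts. Members, lists and markers were chosen with earlier results of these data known. In each list the text names the 4 genes with the smallest p for MII against GV in WT. Symbols were matched to the Ensembl gene IDs, of which 54079 had a symbol. Coordinates and overlapping genes come from a RefSeq table of GRCm38.p6. Same-numbered libraries were not treated as pairs (closing section).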

Additional observations from a re-analysis of the deposited data

Results flagged for a closer look

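The ratio of Npm1 to Npm2 counts was 8.41 in MII Null replicate 4, while the other MII Null libraries lay at 9.70, 9.72 and 9.73, and its gap to them was 0.972 of the range of the group. The library stood apart from the others of its group by an outlier test for groups of 4, which flags about 1 group in 20 by chance and was run on 9 values here. The groups of 3 libraries were not put to this test. In GV Null the same ratio was 2.42 in replicate 1, against 2.06 and 2.02 in replicates 2 and 3. The same library had the lowest Npm1 (985 CPM) and Trim24 (383 CPM) and the highest Npm2 (117 CPM) of the MII Null group, and 19 of 21 cumulus and granulosa markers above 0, against 11 to 13 in the other MII Null libraries, with a summed level within 364 to 378 CPM in all 4. Serpine2 alone averaged 251 CPM in MII Null, so the sum says little about the rarer markers. The part of cumulus and granulosa cells in the ratio was not tested.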

How the results depend on the processing

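In both genotypes Npm2, Npm1 and Trim24 kept their maturation call and direction in all 20 alternatives, and none of the 8 genes was called between Null and WT, or differed between stages in that effect, in any. The alternatives share most of their libraries, and some leave out a library of a group that is not compared, so they are not independent checks. Other maturation calls were less firm. Under library size scaling 3 members were called in Null (6 with TMM) and 3 in WT (5 with TMM), and the change of Trim28 in Null was -0.070 and that of Bnc1 in WT -0.034. Leaving out 1 library gave 4 to 6 called members in Null and 3 to 5 in WT, with 3 without MII WT replicate 1 or 3. Past the test only under an alternative were Trim28 in Null (RLE, adjusted p = 0.0442, and DESeq2, 0.0287), Smarca4 in WT (replicate block, 0.0458, and the compared groups alone, 0.0169) and Bnc1 in WT (the compared groups alone, 0.0465). RLE scaling shifted the median of all genes by at most 0.034 log2 units. Leaving out an MII Null library also shifted the WT changes, whose own counts stay as they are, through the TMM factors: Trim28 in WT was 0.17 without any of the 4, with adjusted p from 0.0620 to 0.0869.

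Over all genes, 11 were called between Null and WT in GV oocytes, 644 with no filter on low counts, 27 with DESeq2, 1 without GV Null replicates 2 and 3, and 6 to 101 without 1 library. The count was 101 when replicate 1 of GV Null was left out, and 6 when its replicate 3, or replicate 1 or 2 of GV WT, was. In MII eggs 11 were called, 290 with no filter, 41 with DESeq2 and 4 to 12 without 1 library, 7 without MII Null replicate 1, 5 without MII WT replicate 1 or 3 and 4 without MII WT replicate 2. The difference between stages called 1 gene, 157 with no filter, 2 with DESeq2, and 0 with RLE scaling, with the replicate block, without GV Null replicates 2 and 3 or without any 1 library. MII against GV in Null called 9867 genes, and 5683 without GV Null replicates 2 and 3. The fit without GV Null replicates 2 and 3 leaves a single GV Null library, so its counts of calls rest on fewer libraries than the others. The cause of the changes in these counts was not tested.

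Deviations of same-numbered libraries of different groups did not all correlate above 0.1 (correlations of -0.132 to 0.219 over 12 pairs, 2 of them above 0.1), so the numbers were not taken to pair the libraries. As a hint from the data, the library of the same number was the best match for 5 of 6 libraries between Null and WT in eggs, 3 of 6 in GV oocytes and 0 of 6 between stages in each genotype. With the replicate block 6 members were called in Null and 6 in WT, and 11, 12 and 0 genes were called in the genotype comparisons in GV oocytes, in eggs and between stages. Replicate number 4 occurs in MII Null alone, so the block fits that library exactly. Values with the block thus also leave that library out of the group differences.

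Genotype differences near 0, none of them called, changed sign with the setting. In GV oocytes, log2 differences under library size scaling were 0.00041 for Npm1 and 0.0055 for Npm3, and without GV Null replicates 2 and 3 they were 0.067 for Npm1, -0.0023 for Trim28, -0.0086 for Trim24 and 0.046 for Bnc1. Without 1 library they ran from -0.059 to 0.035 for Npm1, -0.19 to 0.098 for Npm3, -0.020 to 0.043 for Trim24 and -0.058 to 0.031 for Bnc1. In eggs Npm2 was -0.0059 under library size scaling, -0.019 with the replicate block and -0.0022 with the compared groups alone. Trim28 in eggs was 0.011 with RLE scaling, 0.0013 with no filter, 0.015 with the replicate block and 0.011 with DESeq2, and with the block Smarca4 was 0.0018 and Trim24 0.0021. Without 1 library the egg differences ran from -0.0086 to 0.037 for Npm2, -0.086 to 0.14 for Npm3, -0.12 to 0.029 for Smarca4, -0.035 to 0.041 for Trim28 and -0.053 to 0.019 for Trim24. For the difference between stages, Ctcf was -0.0017 under library size scaling, -0.0054 with the replicate block and -0.045 without GV Null replicates 2 and 3, where Bnc1 was -0.0038. Without 1 library that difference ran from -0.087 to 0.023 for Npm1, -0.074 to 0.21 for Npm3, -0.086 to 0.011 for Trim24 and -0.012 to 0.13 for Ctcf.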
